A study of Mus musculus with 6 samples.

Results

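Mucl1, Spt1, Lpo, Agr2, Pip, Prol1 and Ceacam1 are products of salivary acini, or in the case of Agr2 and Ceacam1 proteins of acinar and other epithelial cells. These 7 genes were taken by name from the 43280 rows of the table of raw counts, and all 7 passed the filter on low counts together with 18606 rows in all. They were chosen by their counts and their differences between the groups in these same libraries, so the differences given for them between the groups are a description and carry no test. RNA was sequenced from whole submandibular glands (SMGs) of adult female mice on a C57BL/6 background. There were 3 libraries labelled wild type (WT) and 3 labelled DKO, numbered 1, 4 and 5 in each group, and each library came from 1 gland. The DKO mice carry a frameshift deletion in exon 1 of Hs3st3a1 made with zinc finger nucleases, on a chromosome whose Hs3st3b1 gene is already inactivated by a LacZ cassette, which by the study's design inactivates both of these heparan sulfate 3-O-sulfotransferases in every cell. By qPCR the study reported no expression of either gene in adult DKO glands of both sexes. The counts of the 2 genes here did not separate the labels. They thus differ from that report and give no check of the design, and the reason was not tested. Several founders with different deletions were bred, and which of them gave the 3 glands was not given in the sources used here. Nor did those sources say that the glands came from separate mice, so the errors measure the spread between glands. The comparison asked how gene expression differed between glands labelled DKO and WT.

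Acinar cells make saliva proteins on the rough endoplasmic reticulum, store them in granules at the lumen and release them when nerves stimulate the gland. In the mouse SMG much of that output is mucin and small mucin-like protein, rich in serine and threonine that carry sugar chains. Mucl1 and Spt1 are small secreted products of this kind, Prol1 (also named Muc10) is a mucin with tandem repeats, Pip is a secreted glycoprotein first described as prolactin-inducible, and Lpo is the salivary peroxidase. Agr2 is a disulfide isomerase that stays in the endoplasmic reticulum and helps mucins to fold. Ceacam1 is an adhesion receptor of the immunoglobulin family at the cell surface, and is the only member of the group that is anchored in the plasma membrane.

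Mucl1 and Spt1 lie on the same strand near the end of chromosome 15 and are related in sequence, which matters for how their reads can be told apart. The row Spt1 is the gene now named Mucl2, by the RefSeq synonyms of GRCm38.p6, and Mucl1 has the synonym Spt2 there. In the GENCODE M21 annotation of GRCm38, Mucl1 lies at chr15:103751919-103755469 and Spt1 at chr15:103895855-103899312, both on the minus strand, 140 kb apart. GENCODE calls both protein coding, while RefSeq lists Mucl1 as a transcribed pseudogene. The coding parts of exons 1 and 2 have the same length in both genes and are shown 5′ to 3′ because they hold the most similar stretch, with capitals at the positions where the genes differ. They span chr15:103754624-103755439 for Mucl1 and chr15:103898408-103899241 for Spt1 with the intron left out.
Mucl1: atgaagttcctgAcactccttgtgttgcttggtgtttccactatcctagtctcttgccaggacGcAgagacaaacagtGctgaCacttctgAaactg
Spt1: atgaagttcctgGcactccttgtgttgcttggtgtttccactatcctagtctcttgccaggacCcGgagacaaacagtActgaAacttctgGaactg
Of these 97 bases, 6 differed, an identity of 93.8%. After exon 2 the genes diverge. The remaining coding sequence was 431 bases in the 4-exon transcript of Mucl1 and 320 bases in that of Spt1, and 255 of the 319 bases that could be aligned were identical (79.9%). Exon 3 was 434 bases in Mucl1 and 270 in Spt1. It holds in Mucl1 a run of near-repeats, shown here from chr15:103753451-103753592 (minus strand) with the most frequent 7-base word of the coding sequence in capitals.
Mucl1: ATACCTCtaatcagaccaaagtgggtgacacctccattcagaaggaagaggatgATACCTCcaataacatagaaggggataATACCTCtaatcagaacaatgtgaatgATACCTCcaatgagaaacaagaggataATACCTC
That word occurred 5 times in the Mucl1 coding sequence and 1 time in that of Spt1. The other GENCODE transcript of Mucl1 has 7 exons with a gap of 2 bases between a pair of them. The longest run identical in the transcripts of Mucl1 and Spt1 was 50 bases. Of the 820 different 30-base windows in Mucl1 transcripts, 23 (2.80%) also occurred in Spt1, and none occurred in another gene of the annotation.

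The other members lie on 5 chromosomes. Prol1 is at chr5:88317312-88328814 and Pip at chr6:41847535-41852065, both on the plus strand, Lpo at chr11:87806428-87828289 (minus), Agr2 at chr12:35992907-36004087 (plus) and Ceacam1 at chr7:25461707-25477603 (minus). No 30-base window of Lpo, Agr2, Pip or Prol1 transcripts occurred in a transcript of another gene. For Ceacam1, 38.0% of the windows did, 2167 of 2253 of them in Ceacam2, so its reads are the least certain of the group. In Prol1 the most frequent 12-base word occurred 10 times, and the stretch from its first to its last copy made up 46.0% of the 939 coding bases. The last 8 copies are shown in capitals from chr5:88328220-88328495, since such repeats are what makes a gene of this kind a mucin.
Prol1: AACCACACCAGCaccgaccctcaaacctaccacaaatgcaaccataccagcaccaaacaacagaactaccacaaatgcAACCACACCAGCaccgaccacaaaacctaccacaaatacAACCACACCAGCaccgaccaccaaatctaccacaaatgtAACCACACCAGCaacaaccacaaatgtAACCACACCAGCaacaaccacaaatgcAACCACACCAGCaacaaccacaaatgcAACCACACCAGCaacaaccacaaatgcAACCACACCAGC
Copies were spaced by 27 to 117 bases, and neither Mucl1 nor Spt1 held the word in its coding sequence.

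Total counts ranged from 23674258 to 29611975 per library. For the targeted genes, the counts of Hs3st3b1 were 120 to 255 under the DKO label and 173 to 261 under the WT label, and Hs3st3a1 had 8 to 15 counts in every library. The groups are therefore named by their labels throughout. A pair of libraries stood apart by products of the neighbouring salivary glands. Muc19, the sublingual mucin, had 62150 counts in WT 5 and 3906 in DKO 1 but 27 to 120 in the other 4 libraries, and Bpifa2, the parotid secretory protein, had 88122 and 3632 there but 70 to 105 elsewhere. Amy1, salivary amylase, had 27624 counts in WT 5 and 114 to 262 in the rest. Values without WT 5 and DKO 1 are given below beside the results.

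The 7 genes together took 37.1%, 40.4% and 36.9% of all counts in WT 1, 4 and 5, and 41.5%, 44.1% and 44.6% in DKO 1, 4 and 5. Their share was thus 38.1% ± 1.97 (SD, n = 3) in WT and 43.4% ± 1.66 in DKO, and the groups did not overlap. The difference of 5.25 percentage points was made up almost wholly by Mucl1, with 2.68 points, and Spt1, with 2.47 points. Pip added 0.0243 points, Prol1 0.0668, Lpo 0.0143 and Agr2 0.000919, while Ceacam1 was lower by 0.000647 points in DKO. Outside Spt1 and Mucl1, the other 5 genes took 2.67% to 3.33% of the remaining counts in WT and 3.40% to 3.55% in DKO. Without WT 5 and DKO 1 the difference for the 7 genes was 5.58 points. In whole-gland RNA, a change in the number of cells of a type and a change in RNA per cell cannot be told apart. A share also depends on what all other genes do.

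**Figure D1:**
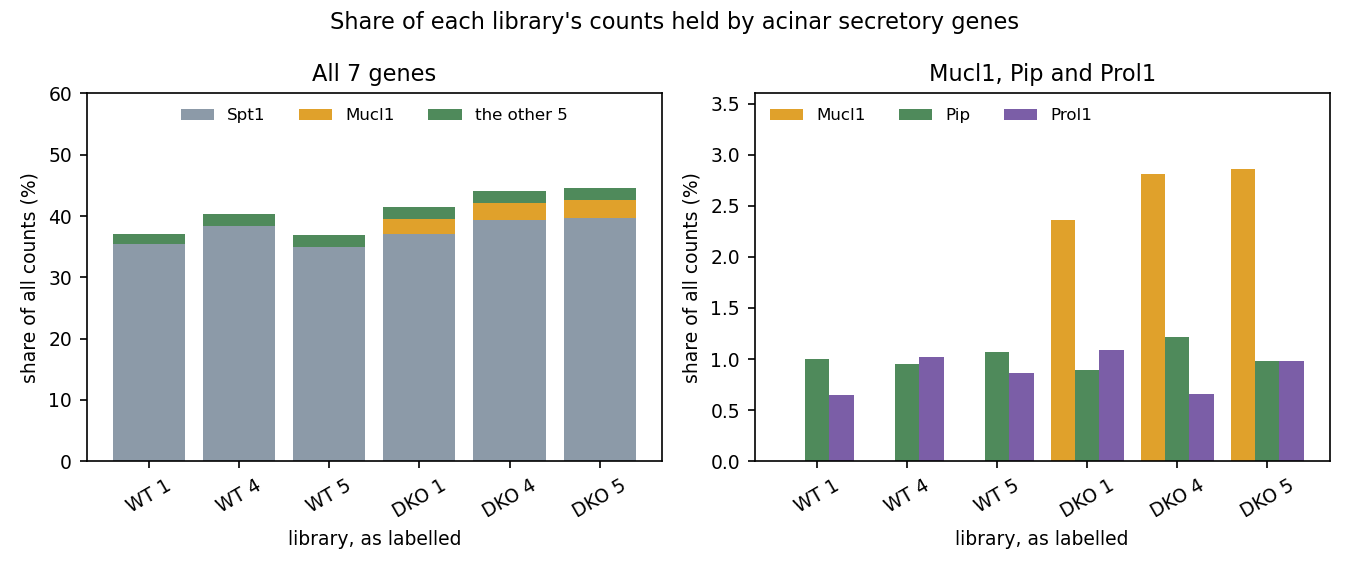
Share of all counts (%, from 0) in each library. The left panel stacks Spt1, Mucl1 and the other 5 genes, which together reach 36.9% to 40.4% in WT and 41.5% to 44.6% in DKO; the right panel sets Mucl1 beside Pip and Prol1, and Mucl1 is too low to be seen in WT.

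Fold changes below are from DESeq2 on counts scaled by median-of-ratios size factors (normalized counts), as DKO over WT. Among all rows tested 2.90% had an adjusted p-value under 0.05, 1.02% as higher and 1.88% as lower in DKO, and 2 of the 7 genes, Mucl1 and Agr2, passed that threshold, both as higher. This number was 5 without DKO 1 (Spt1, Lpo and Pip in addition), 3 without WT 4 (Spt1 in addition), 3 with the replicate block (Lpo in addition) and 1, Mucl1, with edgeR or limma-voom. The groups did not overlap in 20.3% of rows, with every DKO library above every WT library in 9.85% and below in 10.5%, and DKO was above for 3 of the 7, namely Mucl1, Agr2 and Lpo. Because the genes were listed with these values known, nothing is read from either count.

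Mucl1 was nearly absent in WT and was among the most abundant transcripts in DKO. It had 241, 64 and 105 counts in WT 1, 4 and 5, and 666809, 833104 and 737918 in DKO 1, 4 and 5. All 3 DKO libraries were high and all 3 WT libraries low, with no value in between. On the normalized scale the means were 132 ± 93.8 in WT and 784737 ± 132093 in DKO (SD, n = 3), a log2 fold change of 12.54 (SE 0.61). No other row with a mean of at least 100 normalized counts that passed the threshold came near this size, the next being Ighg2c, an antibody heavy chain constant region, at -6.38, and Gm25911 at 6.23. By its mean count Mucl1 ranked 9190th among all rows in WT and 5th in DKO.

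Within WT the Mucl1 counts were uneven. WT 1 held 3.81 times the normalized count of WT 4, while the highest of the DKO libraries held 1.38 times the lowest. The share of all counts in WT 4, the lowest library, was 0.000237%, with a 95% Wilson interval of 0.0001858% to 0.0003030% that covers counting error only. Leaving out WT 1 raised the log2 fold change to 13.29, and leaving out WT 5 and DKO 1 together gave 12.48. Set against Spt1, Mucl1 had 0.000619% to 0.00287% as many counts in WT and 6.36% to 7.20% in DKO. The 30-base windows that both genes share would let a small part of the reads of Spt1 be counted for Mucl1, and the part of such reads in the few counts of WT was not tested.

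Spt1 was the most abundant row of every library. It had 8298696, 10113751 and 8546860 normalized counts in libraries WT 1, 4 and 5, and 9948667, 12174229 and 11818698 in libraries DKO 1, 4 and 5. The groups overlapped, since WT 4 lay above DKO 1. Its log2 fold change was 0.33 (SE 0.11), and it took 36.2% ± 1.84 of all counts in WT and 38.7% ± 1.40 in DKO. With total counts as the scale the log2 fold change was 0.10, on a scale where the median of all genes stood at -0.23, so that relative to this median it was again 0.33.

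**Figure D2:**
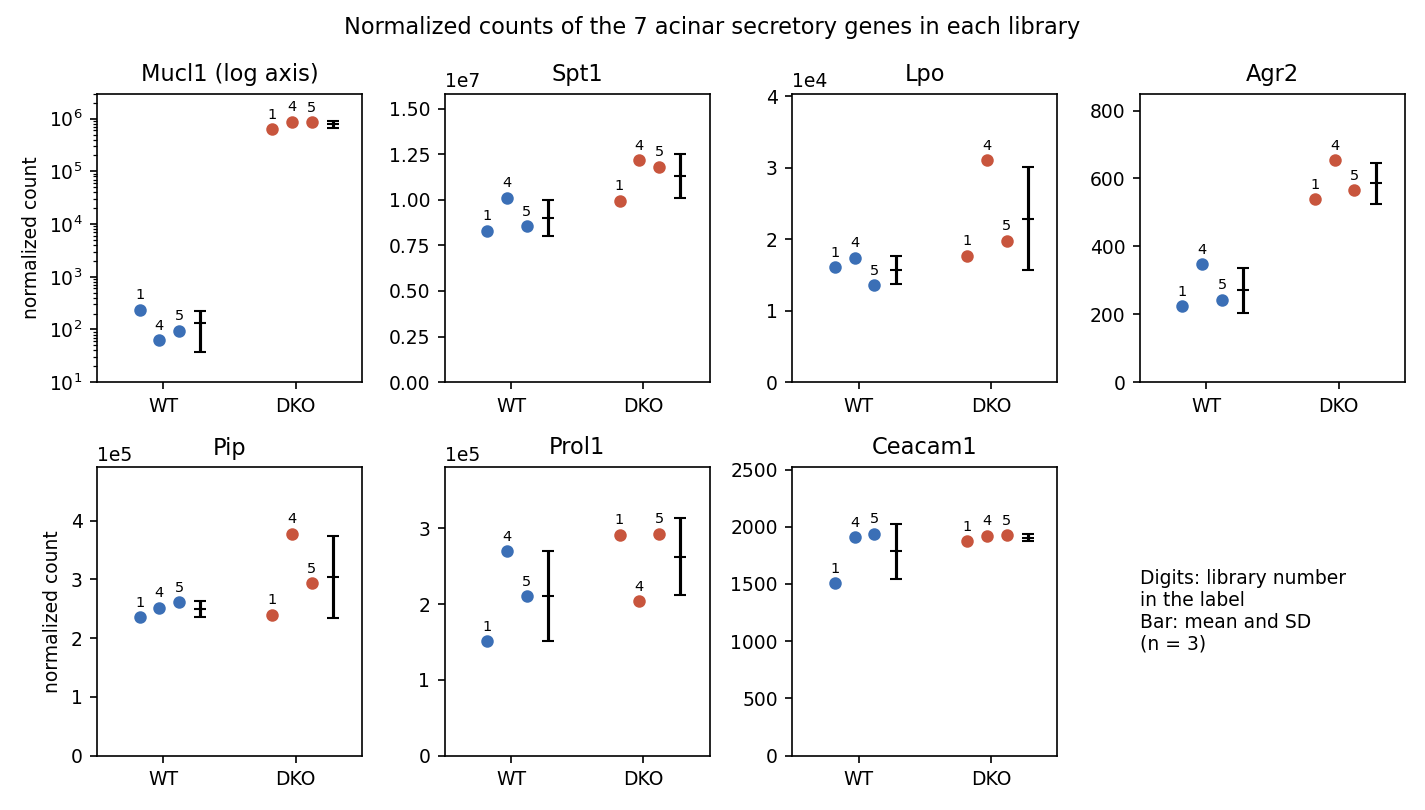
Normalized counts of each gene in each library (points, numbered as in the labels) with the group mean and SD (n = 3). The axis of Mucl1 is logarithmic and the others start at 0; the groups are apart for Mucl1, Agr2 and Lpo and overlap for Spt1, Pip, Prol1 and Ceacam1.

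Prol1 and Pip, the next most abundant of the 7 genes in WT, overlapped between the groups. Prol1 had 150826, 269932 and 210741 normalized counts in libraries WT 1, 4 and 5, and 291681, 203462 and 293045 in libraries DKO 1, 4 and 5. WT 1 was the lowest library and DKO 4 the next lowest, so the groups overlapped (log2 fold change 0.32, SE 0.19). For Pip the normalized counts were 235248, 251652 and 261644 in the WT libraries and 239939, 377968 and 293226 in the DKO libraries. DKO 4 was the highest and DKO 1 lay within the range of WT, again with overlap (0.28, SE 0.14). The WT libraries were close together for Pip, with a coefficient of variation of 5.34%, and spread for Prol1, at 28.3%. The ratio of Pip to Prol1 counts ranged from 0.932 to 1.56 in WT and from 0.823 to 1.86 in DKO, and the highest ratio in each group was that of the library with least Prol1. Without WT 5 and DKO 1 the log2 fold changes were 0.24 for Prol1 and 0.46 for Pip. Single libraries moved both values, Prol1 to 0.13 without WT 1 and 0.54 without WT 4, and Pip to 0.10 without DKO 4 and 0.43 without DKO 1. With total counts as the scale that of Pip was 0.03, or 0.27 relative to the median of all genes.

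Lpo oxidizes thiocyanate with hydrogen peroxide, which yields an antibacterial product in saliva. It had 16090, 17386 and 13535 normalized counts in libraries WT 1, 4 and 5, and 17666, 31069 and 19815 in libraries DKO 1, 4 and 5. DKO 4 was far above the rest, and the gap between the highest WT and the lowest DKO library was narrow. The log2 fold change was 0.54 (SE 0.18). It fell to 0.26 without DKO 4 and rose to 0.60 without WT 5 and DKO 1. On the scale of shares the groups overlapped, since WT 1 at 0.0687% of counts lay above DKO 1 at 0.0659% and DKO 5 at 0.0665%.

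Other peroxidases, hydrogen peroxide sources and halide transporters were looked at beside Lpo. The peroxidases Mpo and Epx and the anion exchanger Slc26a4 had 0 counts in all 6 libraries. There were 7 genes tested and 0 passed the threshold, with a median log2 fold change of 0.16 against 0.00 for all genes; Duoxa1 had no adjusted p-value. Duox2, which makes hydrogen peroxide at the apical membrane, had 2446 ± 561 normalized counts in WT and 2077 ± 296 in DKO, and Cftr, the apical anion channel, had 1089 ± 82.0 and 886 ± 308 (SD, n = 3).

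Agr2 was a low-abundance gene with clear separation. It had 224, 347 and 243 normalized counts in libraries WT 1, 4 and 5, and 539, 654 and 565 in libraries DKO 1, 4 and 5. The lowest DKO library was well above the highest WT library. The log2 fold change was 1.11 (SE 0.18), and it ranged from 0.99 without WT 1 to 1.33 without WT 4. It was 1.09 without WT 5 and DKO 1. Agr3, the paralog next to Agr2, had 1 count in all 6 libraries together.

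Other protein disulfide isomerases and their oxidases were compared with Agr2 as a list of 13 genes, of which 11 were tested. Ero1lb, an oxidase that recharges these isomerases, was the 1 gene that rose, and 0 fell. Its means were 3086 ± 258 in WT and 3867 ± 252 in DKO (log2 fold change 0.33, SE 0.10, adjusted p = 0.0430 by DESeq2). That call was lost with edgeR, limma-voom, the replicate block and total counts as the scale, and without WT 1, WT 5, DKO 4 or DKO 5. P4hb, the abundant founding isomerase, had a log2 fold change of 0.34 and missed the threshold (adjusted p = 0.0553). The median of the list was 0.21 against 0.00 for all genes. Of its 11 values 10 were above 0, beside 9334 of 18606 for all rows. Pdia4 was the exception, at -0.12. Of the 11 tested genes of this list 4 had all DKO libraries above all WT libraries, beside 9.85% of all rows, none of them by as much as Agr2.

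Ceacam1 was the member that differed least. It had 1506, 1907 and 1940 normalized counts in libraries WT 1, 4 and 5, and 1872, 1920 and 1925 in libraries DKO 1, 4 and 5. WT 1 was the low library, and the others lay within a narrow band with no order by group. The log2 fold change was 0.09 (SE 0.12) and changed sign with the setting, being -0.01 without WT 1 or when scaled by the counts outside the 7 genes, -0.14 when scaled by total counts, and 0.17 without WT 5 and DKO 1. Ceacam2, the neighbour with which it shares most of those windows, had 2.83% to 4.72% as many counts. Of 12 other Ceacam genes counted, 7 had 0 counts in all libraries. The 3 that were tested, Ceacam2, Ceacam10 and Ceacam20, gave 0 calls and a median log2 fold change of -0.02.

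**Figure D3:**
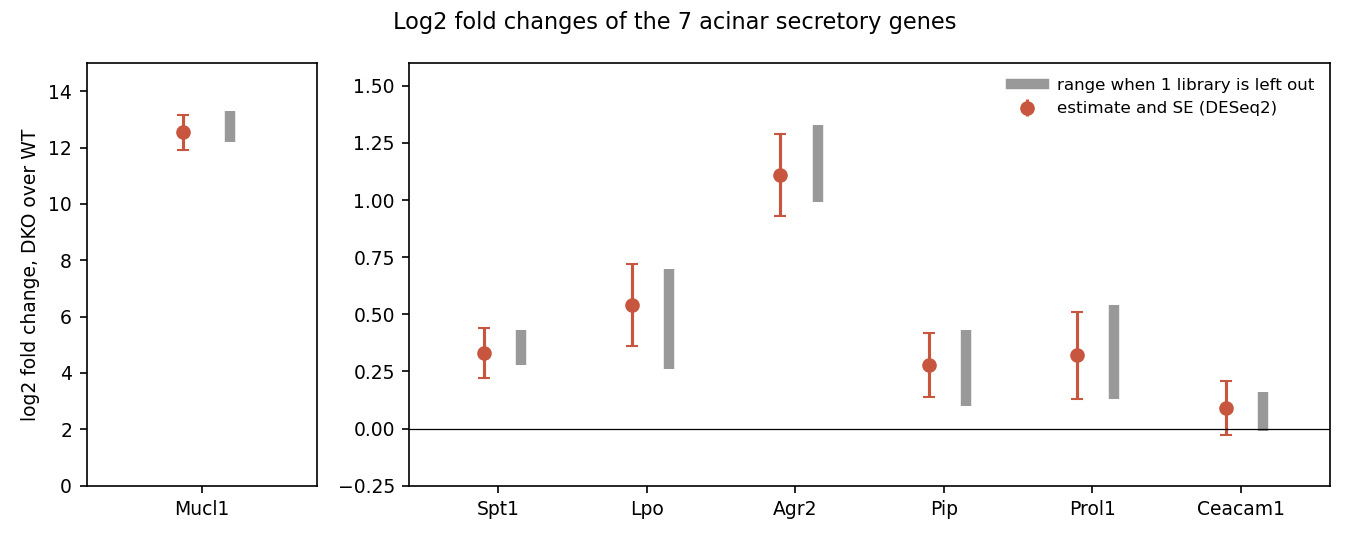
Log2 fold changes (DKO over WT) with their SE, and beside each a grey bar for the range over the 6 fits that leave out 1 library. Mucl1 has its own axis (12.21 to 13.29); Agr2 stays between 0.99 and 1.33, Lpo reaches down to 0.26 and Ceacam1 crosses 0.

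Levels of different genes were compared as CPM (counts scaled to a fixed library total) per kilobase of exon sequence, with all exons of the gene merged. In WT the order was Spt1 (334000 to 366000), Prol1 (5540 to 8800), Pip (3990 to 4480), Lpo (176 to 219), Ceacam1 (11.1 to 13.7), Agr2 (7.39 to 10.2) and Mucl1 (2.98 to 12.8). Mucl1 overlapped both Agr2 and Ceacam1 there, so the last places have no firm order. In DKO the order was Spt1 (355000 to 379000), Mucl1 (29600 to 35800), Prol1 (5650 to 9350), Pip (3750 to 5110), Lpo (210 to 320), Agr2 (14.7 to 16.4) and Ceacam1 (mean 11.3), with no overlap between neighbours. Mucl1 stood thus among the 3 lowest genes in WT and second in DKO, and Agr2 changed places with Ceacam1. The order of Pip and Prol1 depended on the length used. With the first transcript of each gene in place of all its exons, Pip had 16200 to 18200 in WT and 15200 to 20800 in DKO, above Prol1 in both groups.

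The members did not vary as a block within the groups. After the mean of its own group was subtracted from log2 normalized counts (pseudocount 1), Pearson's r over the 6 libraries was 0.86 between Spt1 and Agr2, 0.81 between Lpo and Pip and 0.67 between Spt1 and each of Lpo and Pip. It was -0.86 between Mucl1 and Prol1 and -0.87 between Mucl1 and Ceacam1. These values are a description over 6 points that share libraries and size factors, and for Mucl1 they rest on the low counts of WT. By the same measure, among 9897 genes with a mean of at least 100 normalized counts, the genes most like Spt1 were Aldh6a1, Thap11 and Tspan15, and those most like Lpo were Bet1, Chchd10 and Stt3a. The closest to Agr2 was Trappc11, to Pip Etfa, to Prol1 Nrd1, to Ceacam1 Mrpl12 (each between 0.997 and 0.999), and to Mucl1 Rdh10 (0.997). With so few libraries such values arise for every member.

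The genes around the members were looked at for signal that goes with them. Within 200 kb of Mucl1, the rows other than Mucl1 and Spt1 were Glycam1, a secreted mucin-like protein of lymph node and mammary gland, and the small RNA Gm22852, with 1 and 2 counts in all 6 libraries together. Of the direct neighbours of the other members, Tspan13, a membrane protein gene 10.5 kb from Agr2, rose, with 2027, 2500 and 2461 counts in WT and 3180, 2936 and 2455 in DKO (log2 fold change 0.42, DESeq2 adjusted p = 0.00451). The call of Tspan13 was lost with edgeR, limma-voom or total counts as the scale, and without WT 1 or WT 5. Sval2, a relative of Pip that starts 0.924 kb past its end, had 274, 279 and 325 counts in WT and 228, 179 and 170 in DKO (log2 fold change -0.48), and missed the threshold (adjusted p = 0.0618). Its difference thus had the opposite sign to that of Pip, with no overlap between its groups. Mpo, 2.02 kb from Lpo, was at 0.

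RefSeq promoter windows of GRCm38.p6, which hold 300 bases around the start of a gene, were found for 6 of the 7 genes, all but Mucl1. The window of Lpo, chr11:87826065-87826364, lay inside the gene as GENCODE places it and did not reach the start given there. On both strands the word TATAAA occurred 2 times in the window of Pip and in none of the other 5, while 13.6% of all 32851 windows held it. ACAAAG occurred 1 time each in the windows of Agr2, Prol1 and Ceacam1 (18.7% of all windows). The words CATATG and CAGCTG, in 3.91% and 16.3% of all windows, occurred in none of the 6. No word was shared by all 6 windows.

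Other secreted products of salivary glands were counted to see whether the pattern of the 7 genes extended to them. Of 31 listed genes 24 were tested, 3 were higher and 1 was lower in DKO, beside 1.02% and 1.88% of all rows. Agt, the precursor of angiotensin, rose, with a mean of 3061 ± 156 normalized counts in WT and 7190 ± 1244 in DKO (1.23 on the log2 scale, SE 0.13, adjusted p = 4.98e-19 by DESeq2). Azgp1, a secreted glycoprotein related to MHC class I, rose from 107 ± 27.4 to 289 ± 35.2 (1.43, SE 0.22, adjusted p = 3.85e-08). Scgb1b27, a secretoglobin that makes up androgen-binding protein, rose from 813728 ± 44334 to 1010332 ± 66884 (0.31, SE 0.09, adjusted p = 0.0212). Esp4, of the exocrine gland-secreting peptide family, fell from 233 ± 40.1 to 142 ± 32.6 (-0.72, SE 0.22, adjusted p = 0.0390).

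The calls of Scgb1b27 and Esp4 were lost without WT 5 and DKO 1, where Agt and Azgp1 were the genes that passed, and also without WT 5 alone or DKO 5 alone. Esp4 also lost it without DKO 4 or WT 1, and Scgb1b27 without WT 1. With the replicate block neither passed, and Car6 and Wfdc12, a secreted protein with a whey acidic protein domain, passed as higher in their place. With edgeR or limma-voom Agt was the only one of the list to pass. With total counts, or counts outside the 7 genes, as the scale, Scgb1b27 lost its call and Sval2 passed as lower. Car6, the secreted carbonic anhydrase and the fourth most abundant row of the table, had 648643 ± 124919 normalized counts in WT and 884027 ± 120922 in DKO (log2 fold change 0.45, adjusted p = 0.0559), and Scgb2b27, the partner of Scgb1b27, had 596142 ± 37084 and 723365 ± 46761 (0.28, adjusted p = 0.0557). Scgb2b26, also a secretoglobin, had 317556 ± 25436 and 354876 ± 36685 (0.16, adjusted p = 0.577). Of the tested genes 9 had no adjusted p-value, among them Muc19, Bpifa2, Amy1 and Dcpp1 to Dcpp3, whose counts were far higher in WT 5 than in the rest. Those genes set the median of the list, which was -0.83 over all 24 genes and 0.15 over the 15 with an adjusted p-value. Without WT 5 and DKO 1 the median was -0.00 over the 20 genes then tested, with 9 of them above 0.

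**Figure D4:**
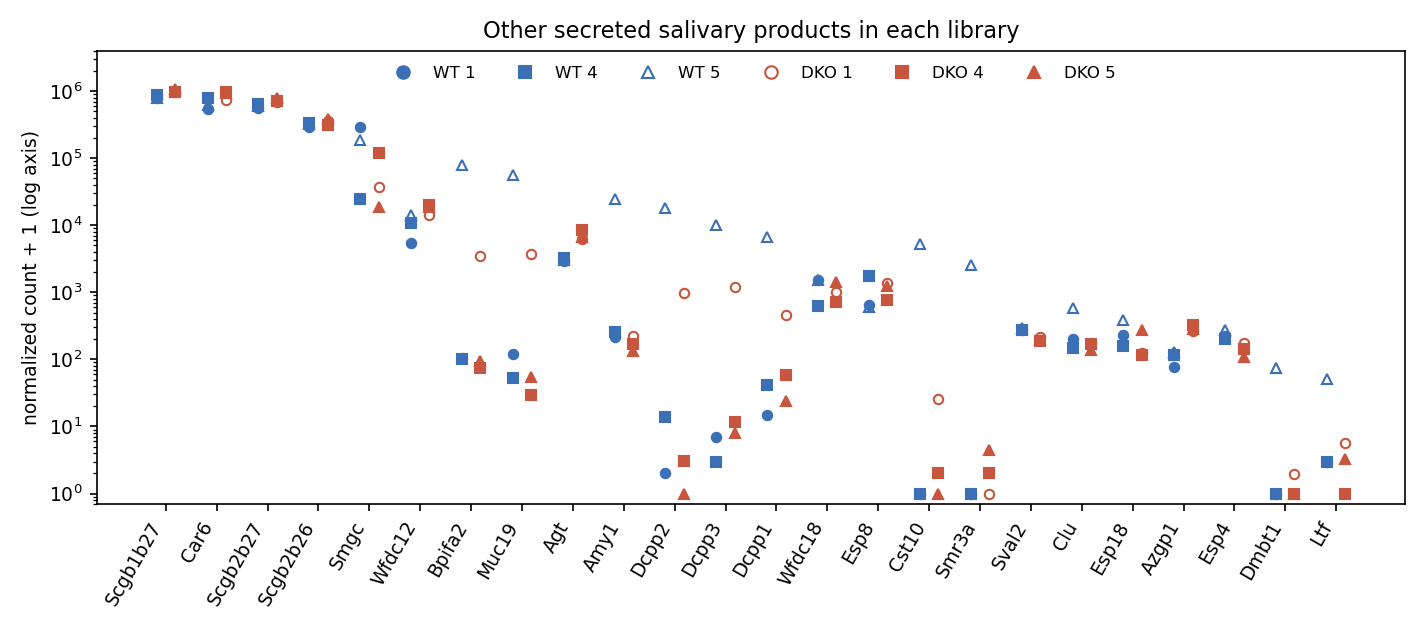
Normalized counts plus 1 (log axis) of the 24 other secreted salivary products tested, one symbol per library, ordered by mean. Open symbols are WT 5 and DKO 1, which lie above the other libraries for Muc19, Bpifa2 and the Dcpp genes; the most abundant genes, from Scgb1b27 to Scgb2b26, lie close together in all 6 libraries.

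Markers of the cell types in the gland were read beside these results. All 8 acinar markers were detected, and 2 of them rose. Aqp5, the apical water channel, had a mean of 4471 ± 516 in WT and 6510 ± 1441 in DKO (log2 fold change 0.54, adjusted p = 0.0165 by DESeq2), and Rab3d, which sits on secretory granules, had 2824 ± 127 and 3690 ± 406 (0.39, adjusted p = 0.0163). Bhlha15, the acinar transcription factor Mist1, had 6044 ± 422 and 6782 ± 14.7 and did not pass (0.17, adjusted p = 0.382). The summed level of the acinar markers was 63227 to 71050 normalized counts in WT and 66733 to 74693 in DKO, overlapping between the groups. Slc12a2 made up most of that sum, at 50273 ± 4850 in WT and 47567 ± 2937 in DKO (log2 fold change -0.08), so the sum mainly follows 1 gene. Of the 8 log2 fold changes 6 were above 0, beside 9334 of 18606 for all rows. Every DKO library lay above every WT library for 3 of the 8, beside 9.85% of all rows, and 0 had the reverse. Of 16 granular duct markers 15 fell, with sums of 459584 to 502868 in WT and 342091 to 452845 in DKO. The exception was Klk1, the most abundant of the list, with 163159 ± 30866 in WT and 197528 ± 32780 in DKO (log2 fold change 0.28) and overlapping groups. It is a large part of these sums. Of 9 myoepithelial markers 8 fell, with sums of 11449 to 12315 and 6359 to 8267. All 4 red cell markers rose, with sums of 800 to 1657 and 2680 to 3018. Of the 6 other duct markers 0 passed, with sums of 4777 to 4849 and 3699 to 4461. Of their 6 log2 fold changes 0 were above 0 (median -0.25). Every DKO library lay below every WT library for 3 of them, beside 10.5% of all rows. Krt7 and Muc13 passed as lower with total counts as the scale, and Krt7 with counts outside the 7 genes. T cell markers were at low counts, with sums of 18.6 to 82.1 in WT and 0 to 3.14 in DKO, and 2 of 3 fell, Cd3d and Cd8a. The call of Cd3d was lost when any 1 library but WT 4 was left out. It was also lost with the replicate block, total counts as the scale, no count filter or the authors' filtered counts. With a filter of at least 10 counts in at least 3 libraries, 0 T cell markers passed. Of 4 B and plasma cell markers 1 passed as lower, Ms4a1, with 61, 1 and 6 counts in WT 1, 4 and 5 and 0, 1 and 1 in DKO 1, 4 and 5. Its groups overlapped, and the call was lost when any 1 library but WT 4 was left out. The sums of this list, 750 to 1735 in WT and 178 to 1019 in DKO, were mostly Igj, which did not pass (adjusted p = 0.636 by DESeq2). Of 3 skeletal muscle markers 0 passed. These calls are those of DESeq2. With edgeR 2 and with limma-voom 3 granular duct markers passed as lower, and 0 markers of the other lists passed with either. The calls of Aqp5 and Rab3d were also lost without WT 1, WT 5, DKO 4 or DKO 5 and with total counts as the scale. That of Rab3d was lost with counts outside the 7 genes as the scale too. Without WT 5 and DKO 1 the numbers were 0 acinar, 11 granular duct, 6 myoepithelial and 2 red cell markers. The part of these shifts in the values of the 7 genes was not tested. Of 7 mammary gland markers 5 were at 0 in every library, and 0 of 4 adipocyte markers reached the count filter.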

How the data were processed

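Libraries were unstranded (Nextera XT, HiSeq2500). The submitters' processing notes name STAR 2.5.2a, DESeq2, edgeR and limma, and the builds GRCh38, GRCm38 and mm10, with no role. The counting tool and annotation were not given in the sources used here. Per gene symbol, the authors deposited raw counts, unfiltered (used here) and filtered, and a normalized signal, which the authors made by dividing each filtered count by 1 constant per library. Rows with at least 10 counts in all were tested with DESeq2 1.42.0 in R 4.3.3 (two-sided Wald test, Benjamini-Hochberg adjusted p under 0.05), after the script had been tested on simulated data. Alternatives used edgeR 4.0.16, limma 3.58.1 (voom), other scalings and filters, a replicate block and libraries left out. Names were matched to GENCODE M21 symbols (91.2% of rows). Without strand, reads cannot be assigned between genes that overlap in antisense. The members and all gene lists were chosen with earlier results of these data known. Genes named beside the members were those of a list past the threshold with the smallest adjusted p-values (at most 4 per direction), direct neighbours, genes sharing reads and the 3 genes most like each member. Ighg2c, Gm25911, Muc19, Bpifa2, Amy1, Dcpp1 to Dcpp3, Duox2, Cftr, P4hb, Pdia4, Car6, Scgb2b27, Scgb2b26, Wfdc12 and Bhlha15 were named after their values were seen. So were Slc12a2, Klk1 and Igj. A gene of the peroxidase list is not reported here.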

Additional observations from a re-analysis of the deposited data

How the results depend on the processing

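Every alternative kept the sign of the DKO over WT difference for Mucl1, Spt1, Lpo, Agr2, Pip and Prol1, and Ceacam1 changed sign in 3 of 17. Of 119 values of the members under alternatives, 115 moved by less than the spread between replicates. Many of these alternatives leave out 1 library or change a filter, and such changes can hardly move a value by more than that spread. The count is therefore no measure of how robust the values are. Of all genes, 539 passed with DESeq2. Fewer passed with edgeR (10) and limma-voom (7), and more with total counts as size factors (1469); of the members only Mucl1 passed with edgeR or limma-voom. The cause was not tested. Leaving out 1 library gave 149 to 817 genes, with 151 without WT 1, 817 without WT 4, 149 without WT 5, 170 without DKO 4 and 166 without DKO 5, and 183 without WT 5 and DKO 1 together. Of the other salivary secreted products, 4 passed with DESeq2, 1 with edgeR, 1 with limma-voom, 2 without WT 5 and DKO 1 together, and 2 to 8 when 1 library was left out (8 without WT 4, 7 without DKO 1, 2 without WT 5 and 2 without DKO 5). The difference in the share held by the 7 members ranged from 4.63 to 6.37 percentage points over libraries left out.

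With the replicate number as a block, 343 genes and 4 of the other secreted products passed (Agt, Azgp1, Car6 and Wfdc12, all higher), and 3 of the members (Mucl1, Agr2 and Lpo). The numbers share no stated animal or batch. Deviations from the group means of same-numbered libraries correlated at -0.28, -0.05 and -0.29 over 9898 genes, and no library correlated best with its own number, so the pairing was not used. The fold changes of the members with the block were 12.78 for Mucl1, 0.33 for Spt1, 0.51 for Lpo, 1.13 for Agr2, 0.26 for Pip, 0.34 for Prol1 and 0.10 for Ceacam1 on the log2 scale.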
